A study of Rattus norvegicus with 3 samples.

Results

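The genes of the sarcomere, its Z-disc and M-band, and the costamere that ties them to the cell membrane were followed in cultured heart muscle cells. The group is a list of 46 rat genes defined by function, and the probe with the highest mean signal stands for each gene. Of these, 36 had a probe that could be named through RefSeq, and 35 were well above background on all 3 arrays. The series held 15149 genes with such a probe, 11595 of them above background on all 3 arrays. The 10 listed genes without a matched probe, Lmod3, Ttn, Unc45b, Tcap, Ldb3, Myoz2, Nebl, Synpo2l, Mypn and Xirp1, were not analysed here.

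Neonatal rat ventricular cardiomyocytes were used in 3 groups, with 1 array each. The control cells carried the empty vector. The HSD1 cells carried a vector that expresses 11β-HSD1, an enzyme that converts inactive glucocorticoid into its active form. The HSD1 plus BVT cells carried that vector and also received BVT.2733, an inhibitor of the enzyme. All groups were thus transfected, and none of them was left without a vector or given the inhibitor alone. The study asked how the enzyme acts on cardiomyocyte hypertrophy. RNA was pooled within each group, so no array had a replicate. The sources used here do not give the rat strain, the vector's promoter, the dose, the exposure time or the number of cultures per pool.

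A sarcomere is the contractile unit of striated muscle. Thin filaments of actin carry troponin and tropomyosin, which make contraction depend on calcium, and slide past thick filaments of myosin. Z-discs anchor the thin filaments, M-bands cross-link the thick ones, and costameres link the outermost Z-discs to the membrane and the matrix outside. When heart muscle cells enlarge they add sarcomeres, and several Z-disc proteins also take part in sensing stretch.

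Several regulatory sequences recur near the start sites of muscle genes, and 27 of the 36 measured genes had an entry in the RefSeq promoter table (assembly GRCr8). In each, 300 bases, from 250 before to 50 after the start site, were searched on both strands. The CArG box, which serum response factor binds, was present in 4 of 27 (14.8%), against 1.64% of all 27457 promoters. These 4 are shown because in each the box began between 95 and 102 bases before the start site. They lie, as windows of 30 bases, in GRCr8 in Myl3 at chr8:119616987-119617016 (plus strand), Fhl2 at chr9:52954616-52954645 (minus strand), Dmd at chrX:51205978-51206007 (plus strand) and Fhl1 at chrX:139638384-139638413 (plus strand). They read as follows on the gene's strand, with the CArG box in capitals.

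Myl3: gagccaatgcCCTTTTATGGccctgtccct
Fhl2: catttagagaCCAAAAATGGcttgcaggag
Dmd: catgggcagtCCTATTATGGcaaagcaact
Fhl1: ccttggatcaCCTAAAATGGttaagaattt

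The motif of MEF2, a transcription factor of muscle, was present in 5 of 27 (18.5%), against 3.37% of all promoters. The windows are shown since Mybpc3 and Smpx share the same 10 letters. In GRCr8 they lie in Xirp2 at chr3:72534102-72534131 (plus strand), Mybpc3 at chr3:97550942-97550971 (plus strand), Fhl2 at chr9:52954551-52954580 (minus strand), Myoz1 at chr15:3693520-3693549 (plus strand) and Smpx at chrX:41107219-41107248 (minus strand). Capitals mark the motif on the gene's strand.

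Xirp2: agctcagctcCTAAAAATAGatgctaggtt
Mybpc3: tggaatttgtCTATATTTAGcaggtggcta
Fhl2: tggacattccTTATTTATAActctgctgac
Myoz1: ctcatcgactCTATTAATAAccacccccct
Smpx: gtatcaaactCTATATTTAGgaagaacaac

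In Fhl2 a CArG box and an MEF2 motif were both present, and they did not overlap. The M-CAT motif (CATTCC, the site of TEAD factors) was found in 7 of 27 (25.9%), against 13.9% of all promoters. Because the vector's enzyme makes active glucocorticoid, the full glucocorticoid response element was searched too. Its letters, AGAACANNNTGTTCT, occurred in 0 of the 27 and in 2 of all 27457 promoters. The shorter hexamer TGTTCT, which is part of it, was present in 5 of 27 (18.5%) and in 20.1% of all promoters. These are matches of letters in a short window and were not tested as binding sites.

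Of the members with a promoter entry, the highest and the lowest against control on each array with the vector are shown with the 250 bases before the start site. Des was the highest and Xirp2 the lowest with the vector alone, and Trim54 the highest and Smyd1 the lowest with vector and inhibitor. In GRCr8 Des lies at chr9:84299376-84299625 (plus strand), Xirp2 at chr3:72533936-72534185 (plus strand), Trim54 at chr6:30978476-30978725 (minus strand) and Smyd1 at chr4:104811273-104811522 (minus strand). The windows of Des and Smyd1 held none of the letters searched. Capitals mark the MEF2 motif in Xirp2 and the M-CAT motif, read here on the opposite strand, in Trim54.

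Des: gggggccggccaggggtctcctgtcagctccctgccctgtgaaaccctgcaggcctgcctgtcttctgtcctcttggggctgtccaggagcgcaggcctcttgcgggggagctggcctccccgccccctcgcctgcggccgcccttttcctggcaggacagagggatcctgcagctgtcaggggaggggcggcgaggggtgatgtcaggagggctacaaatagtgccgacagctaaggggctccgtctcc
Xirp2: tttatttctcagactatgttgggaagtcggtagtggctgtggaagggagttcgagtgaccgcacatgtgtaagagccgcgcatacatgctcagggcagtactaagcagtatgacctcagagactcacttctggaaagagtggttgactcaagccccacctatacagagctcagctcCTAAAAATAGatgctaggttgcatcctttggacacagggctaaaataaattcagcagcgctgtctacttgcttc
Trim54: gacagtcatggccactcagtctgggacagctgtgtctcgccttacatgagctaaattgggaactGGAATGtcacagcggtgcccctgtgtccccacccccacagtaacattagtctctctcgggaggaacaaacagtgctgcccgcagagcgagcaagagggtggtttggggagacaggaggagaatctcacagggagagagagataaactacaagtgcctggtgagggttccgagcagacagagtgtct
Smyd1: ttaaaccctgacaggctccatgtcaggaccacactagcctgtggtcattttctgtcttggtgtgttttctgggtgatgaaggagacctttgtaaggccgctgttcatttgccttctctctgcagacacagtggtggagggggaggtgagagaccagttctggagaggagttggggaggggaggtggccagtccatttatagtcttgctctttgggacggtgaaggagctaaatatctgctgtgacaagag

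Each signal is given as a normalized log2 signal, that is log2 of the spot's signal minus log2 of the array's percentile 75. A log2 ratio is the difference of that level between 2 arrays. Levels are compared for 1 gene between arrays and never between genes, since probes differ in brightness. No test was possible with 1 array per group, and no p-value is given. Differences were sorted by size, at 2-fold and 1.5-fold, and set against the technical error. That error comes from 1388 probes printed 10 times on each array. The SD of a ratio of single spots was 0.072 for HSD1 against control (log2), 0.214 among the dimmest 347 of these probes and 0.058 among the brightest 347. Differences between cultures or between pools are no part of it. The number of arrays limits the precision.

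As a check of the cell type, all 10 cardiomyocyte markers (such as Myh6, Ryr2 and Pln) were above background on every array. Their summed signal, in units of the array's percentile 75, was 254 in control, 276 in HSD1 cells and 271 with the inhibitor. All 10 fibroblast markers were above background as well (190, 191 and 182), as were all 9 smooth muscle markers with a probe (49.2, 58 and 43.3). Of 8 endothelial markers 5 were detected, without Tie1, Emcn and Cldn5. Of 10 skeletal muscle markers 8 were detected, without Myf6 and Myh4. Macrophage markers above background numbered 8, 8 and 7 of 10, and C1qa was above it on no array. In RNA of whole cultures, fewer cells of a type and less RNA per cell cannot be told apart. Hsd11b1, the gene of the enzyme itself, gave 3.39 in control, 3.86 in HSD1 and 3.76 with BVT added on its 1 probe, a fold of 1.39 with the vector. The sources used here do not say whether that probe reads the vector's transcript. Scan 1 held the control and HSD1 arrays and scan 2 the inhibitor array, so that a scan effect and an inhibitor effect cannot be told apart.

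The 35 members well above background on all 3 arrays differed by less than 2-fold between the 3 groups. With the vector, 0 of 35 measured members differed 2-fold or more from control, where 1.89% of all 11871 measured genes did. At 1.5-fold it was 1 of 35, Myot, against 7.95% of all genes. Among the 29 members above the median signal it was 0, against 5.1% of such genes. Differences of over 2 technical SD were found in 17 members, 12 higher and 5 lower, against 41.2% of all genes. The median log2 ratio was 0.05 over the members and 0.056 over all genes, and 22 of 35 members lay above 0, near the 59.3% of all genes.

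**Figure D1:**
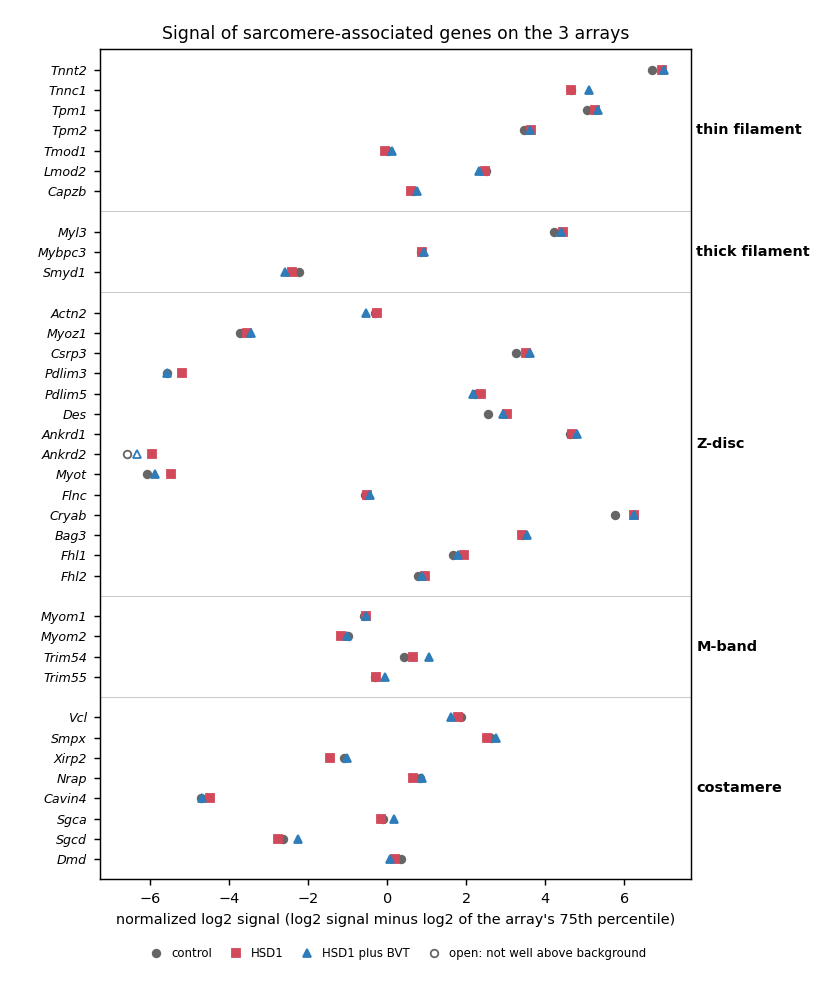
Normalized log2 signal (x axis) of the 36 measured members on the 3 arrays, by compartment; open symbols were not well above background, and the position of one gene against another has no meaning. For nearly all genes the 3 symbols lie close together, and Ankrd2 is the gene with open symbols.

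With the inhibitor added to the vector, 0 of 35 members differed 2-fold from HSD1 alone, against 2.09% of all 11698 measured genes. At 1.5-fold it was again 0 of 35, where 9.08% of all genes passed, and 0 of 29 above the median signal, where 4.46% did. Over 2 technical SD lay 19 members, 13 higher and 6 lower (44.1% of all genes). The median was 0.055, against 0.007 for all genes, and it was -0.002 under cyclic loess scaling.

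Between HSD1 plus BVT and control, 0 of 35 members differed 2-fold (3.7% of all 11716 genes). Trim54 was the 1 member past 1.5-fold (13.6% of all genes), and it was also the 1 of 29 above the median signal (6.47%). Over 2 technical SD lay 23 members, 18 higher and 5 lower, against 50.6% of all genes. The median was 0.121 against 0.05, and 27 of 35 lay above 0 where 58.2% of all genes did. Any 2 of these 3 comparisons share an array, so a high or low reading on that array enters both.

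**Figure D2:**
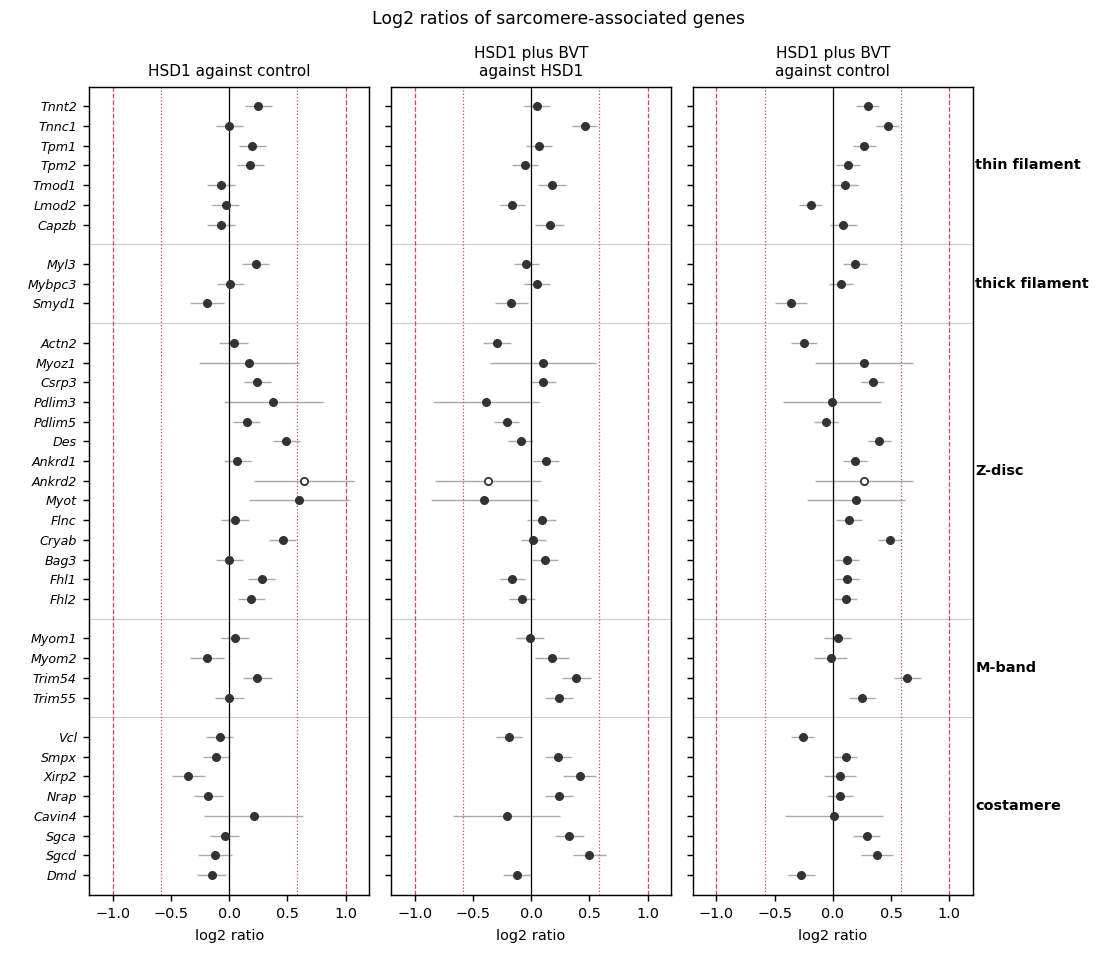
Log2 ratios (x axes) of the measured members in the 3 comparisons; points are ratios between 2 arrays, bars are 2 technical SD of a single-spot ratio, dotted lines mark 1.5-fold and dashed lines 2-fold. Open points rest on an array where the gene was not well above background, and no point lies past a dashed line.

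In the thin filament, the troponin T and tropomyosin genes stood slightly above control on both arrays with the vector, on their brightest probes. Tnnt2 encodes cardiac troponin T, which holds the troponin complex on tropomyosin. It read 6.70 in control, 6.96 in HSD1 and 7.0 with BVT added. The log2 ratios to control were 0.25 and 0.30, each over 2 technical SD. The ratio with the vector was 0.08 under quantile normalization and 0.07 in the authors' deposited values, which is under 2 technical SD (one is 0.058). With vector and inhibitor it was 0.13 at its lowest over the settings. The α-tropomyosin gene Tpm1 read 5.07, 5.26 and 5.33 in the same order on its brighter probe. The β-tropomyosin gene Tpm2 read 3.47, 3.65 and 3.61. Its ratio to control with vector and inhibitor, 0.13, ran from 0.04 to 0.14 over the settings. The lowest of these was under 2 technical SD (one is 0.05).

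The other Tpm1 probe, matched to another RefSeq transcript of the gene, gave 3.05, 3.07 and 2.68. With vector and inhibitor it thus stood at -0.37 against control, where the brighter probe stood at 0.27. Tpm1 makes several isoforms by alternative splicing, and the files do not say which exon each probe covers. Taken as the median over its probes, Tpm1 stood at -0.05 against control with vector and inhibitor. The difference between the probes, 1 spot each, was the widest among the members with more than 1 probe.

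Tnnc1, the calcium-binding troponin C of heart and slow muscle, had the same level in control (4.65) and HSD1 (4.66) and read 5.12 in HSD1 plus BVT. This put the inhibitor array 1.38-fold above either of the others. Under other scalings the ratio to HSD1 ranged from 0.20 to 0.46. Lmod2, a leiomodin that lengthens thin filaments at their pointed ends, read 2.5, 2.48 and 2.32. It was the lowest thin filament gene on the inhibitor array relative to both others.

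Tmod1, the tropomodulin that caps the pointed end, read 0.02, -0.05 and 0.13. Capzb, the β subunit of the protein that caps the barbed end, read 0.66, 0.59 and 0.75. Both were lowest in HSD1 and highest with BVT added, and their distance to control stayed under 2 technical SD in each case. The median of the 7 thin filament genes was 0.004 for HSD1 against control, and it ran from -0.046 to 0.137 over the settings, so it had no stable sign. For HSD1 plus BVT against control it was 0.134, with 6 of 7 above 0, and stayed between 0.049 and 0.135. Over all genes the median there was 0.05, with 58.2% above 0.

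In the thick filament only 3 members were measured. Myl3, the essential light chain of ventricular myosin, read 4.21 in control, 4.44 in HSD1 and 4.41 with BVT added, 1.17-fold and 1.14-fold above control. The second ratio, 0.19, ran from 0.09 to 0.21 over the settings. Mybpc3, the cardiac myosin-binding protein C, was printed 10 times. Its spots averaged 0.86 ± 0.049 in control, 0.87 ± 0.043 in HSD1 and 0.92 ± 0.048 with BVT added (SD over 10 spots of 1 array). The 3 sets of spots overlapped.

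Smyd1 is a muscle-specific methyltransferase needed for myosin folding and sarcomere assembly. It read -2.23 in control, -2.42 in HSD1 and -2.59 with BVT added. It was the lowest member of all with vector and inhibitor, at -0.36 against control or 1.28-fold lower, and this ratio ranged from -0.45 to -0.29 over the settings.

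In the Z-disc, 12 of 13 genes measured on all arrays had ratios above 0 for HSD1 against control, where 59.3% of all genes did. The median was 0.189, and 12 of 13 lay above 0 in every other setting (13 of 14 without the filter on dim probes), with medians of 0.123 to 0.214. Of the 13, 7 were higher by over 2 technical SD and 0 lower, where 41.2% of all genes passed that size in either direction. On the inhibitor array, relative to HSD1, 6 of 13 lay above 0 and the median was -0.075, against 51.2% and 0.007 for all genes. Relative to control, 10 of 13 lay above 0 on that array and the median was 0.139, against 58.2% and 0.05 for all genes. That median ran from 0.063 to 0.188 over the settings. Smooth muscle markers, a list that also holds Des, had 8 of 9 ratios above 0 with the vector (median 0.254) and 0 of 9 with the inhibitor added (median -0.494). Endothelial markers had 5 of 5 above 0 with the vector (median 0.795) and 2 of 5 with the inhibitor added (median -0.298). The summed signals of all 8 with a probe were 5.23, 8.08 and 9.65 in control, HSD1 and the inhibitor array. These sums rest mostly on Kdr, which gave 14000 of an unscaled 14900 on the inhibitor array. Macrophage markers had 5 of 7 above 0 with the vector (median 0.197) and 4 of 7 with the inhibitor added (median 0.244). Their summed signals were 12.8, 18.5 and 14.2 in control, HSD1 and the inhibitor array. In control, Lyz2 gave 15000 of an unscaled 16900. Cardiomyocyte markers had 7 of 10 above 0 with the vector (median 0.141) and 6 of 10 with the inhibitor added (median 0.035). For fibroblast markers it was 4 of 10 (median -0.053) and 3 of 10 (median -0.133). For skeletal muscle markers it was 5 of 8 (median 0.074) and 4 of 8 (median 0.001). The part of these markers in the Z-disc values was not tested.

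Des, the muscle intermediate filament protein desmin, which links neighbouring Z-discs, read 2.54 in control, 3.03 in HSD1 and 2.94 with BVT added. Control was the low array, with ratios of 0.49 for HSD1 and 0.40 for HSD1 plus BVT, or 1.41-fold and 1.32-fold. The first ratio ranged from 0.46 to 0.49 over the settings.

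Cryab, the small heat shock protein αB-crystallin that protects desmin and other filaments, was also lowest in control, with 5.77, 6.24 and 6.26. It stood 1.38-fold and 1.40-fold above control, and the other arrays differed from each other by 0.02. Csrp3, the muscle LIM protein of the Z-disc, read 3.27, 3.51 and 3.62, which is 1.18-fold and 1.27-fold above control.

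Bag3 works with small heat shock proteins in clearing damaged Z-disc proteins. Its 10 spots averaged 3.42 ± 0.055 in control and 3.42 ± 0.074 in HSD1, and 3.54 ± 0.031 in HSD1 plus BVT. The inhibitor array's spots did not overlap those of either other array, a shift of 0.12. How often spots fail to overlap among all 1388 probes printed 10 times was not counted, for Bag3 or the genes below. Over the settings the ratio of the inhibitor array to control ran from 0.02 to 0.14. Bag3 was the Z-disc gene with the lowest ratio for HSD1 against control, at 0.00.

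The LIM-domain genes Fhl1 and Fhl2 are associated with stretch sensing and with signalling at the sarcomere. Fhl1 had 10 spots on its brighter probe, averaging 1.66 ± 0.034 in control, 1.94 ± 0.040 in HSD1 (9 spots kept) and 1.78 ± 0.027 with BVT added. No pair of arrays overlapped, HSD1 was the highest, and the inhibitor array lay between the others. A lack of overlap was not particular to Fhl1, since Pdlim1, a further sarcomere gene, had none between any pair of arrays either. In the further genes Tnni3, Csrp2 and Sgcb the inhibitor array's spots did not overlap those of HSD1, while in Itgb1 they did. For Fhl1 the ratio to control was 0.28 ± 0.017 with the vector (SE over spots only) and 0.12 ± 0.014 with vector and inhibitor. Its other probe, on a different RefSeq transcript, read 0.31, 0.53 and 0.56, so there the inhibitor array was not below HSD1. Over the settings the ratio of the inhibitor array to HSD1 ran from -0.19 to -0.06, and that to control from 0.05 to 0.19. Fhl2 read 0.77, 0.96 and 0.88.

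**Figure D3:**
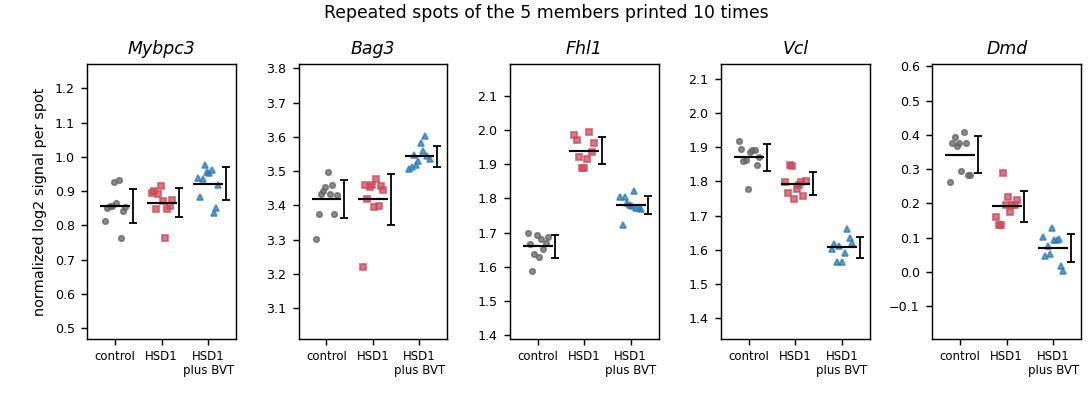
Normalized log2 signal (y axes, which span the same range in every panel) of each kept spot for the 5 members printed 10 times, with the mean as a line and the SD between spots of 1 array as a bar. Fhl1 is highest in HSD1 with no overlap between arrays, and Vcl and Dmd are lowest in HSD1 plus BVT. The share of all repeated probes without overlap was not counted.

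Actn2, the α-actinin that cross-links actin at the Z-disc, was near equal in control (-0.30) and HSD1 (-0.26) and lower in HSD1 plus BVT (-0.55). It was 1.22-fold below HSD1 and 1.19-fold below control, the lowest Z-disc gene against control on the inhibitor array. Pdlim5, a PDZ-LIM protein that binds α-actinin, read 2.22, 2.37 and 2.16. Its relative Pdlim3 read -5.58, -5.19 and -5.58, with both ratios under 2 technical SD at this brightness.

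Myot and Ankrd2 were the dimmest members. Myot, the actin cross-linker myotilin, read -6.08 in control, -5.48 in HSD1 and -5.88 with BVT added. The HSD1 array was 1.51-fold above control, with a technical SD of 0.214 for its ratio of 0.60. That ratio fell under 1.5-fold in 6 other settings, the lowest being 0.30 under cyclic loess. Ankrd2, a stretch-responsive ankyrin repeat protein, was well above background in HSD1 alone. Its reading there, -5.95, was 1.56-fold above that in control (-6.60) and 1.3-fold above that in HSD1 plus BVT (-6.33). The control and inhibitor readings were not well above background, so neither ratio was counted as a difference. The technical SD of these ratios was 0.214 and 0.228.

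Ankrd1, the cardiac ankyrin repeat protein of the titin filament and a much used transcript of stressed heart muscle, read 4.62, 4.69 and 4.81. Against control it stood at 0.07 with the vector, under 2 technical SD, and at 0.19 with vector and inhibitor (0.08 to 0.19 over the settings). It had the highest ratio of the Z-disc genes for HSD1 plus BVT against HSD1, at 0.13. Flnc, the filamin of striated muscle, read -0.57, -0.51 and -0.43. Myoz1, a calsarcin that binds calcineurin, read -3.72, -3.55 and -3.45, all within 2 technical SD.

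In the M-band group, the genes of the TRIM ubiquitin ligases stood above control on the inhibitor array by over 2 technical SD, and the structural genes did not. Trim54, also known as MuRF3, a ligase that binds microtubules and the sarcomere, read 0.42 in control, 0.66 in HSD1 and 1.06 with BVT added. The vector alone thus stood 1.18-fold above control, and vector and inhibitor 1.56-fold. The second ratio, 0.64, was the highest of all members. It ranged from 0.58 to 0.64 over the settings, so in the authors' deposited values it lay just under 1.5-fold. Trim55, or MuRF2, read -0.30, -0.29 and -0.05 and was 1.19-fold above control on the inhibitor array.

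Trim63, or MuRF1, was not a member but belongs to the same family. It read -2.38, -2.12 and -1.62, which is 1.2-fold and 1.69-fold above control. The order of arrays was therefore control, HSD1, HSD1 plus BVT in each of the 3 genes, although control and HSD1 were within the technical error for Trim55.

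Myom1, the myomesin that cross-links myosin tails, read -0.58, -0.53 and -0.54, with no ratio over 2 technical SD. Its relative Myom2 read -0.99, -1.18 and -1.01, lower in HSD1 by 1.14-fold. The median of the 4 M-band genes was 0.027 for HSD1 against control and changed sign between settings (-0.005 to 0.037). It was 0.21 for HSD1 plus BVT against HSD1, between 0.176 and 0.21 over the settings, against 0.007 for all genes in the main values.

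At the costamere, 1 of 8 genes had a ratio above 0 for HSD1 against control, where 59.3% of all genes did. The median was -0.119, against 0.056 for all genes. Over the settings 1 to 2 of 8 lay above 0, with medians of -0.155 to -0.078. By over 2 technical SD, 3 were lower and 0 higher, a share near the 41.2% of all genes. For HSD1 plus BVT against HSD1, 5 of 8 lay above 0 in every setting, where 51.2% of all genes did in the main values, and the median was 0.232 (0.193 to 0.232). Of the 8, 5 were higher and 1 lower by over 2 technical SD, against 44.1% of all genes.

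Xirp2, an actin-binding Xin repeat protein of the intercalated disc and costamere, read -1.10 in control, -1.45 in HSD1 and -1.03 with BVT added. HSD1 was the low array, 1.28-fold below control, which was the lowest ratio of all members in that comparison at -0.35. The inhibitor array was 1.33-fold above HSD1 and within 2 technical SD of control. Nrap, which joins actin to the membrane during myofibril assembly, had the same order with smaller steps, at 0.82, 0.64 and 0.88. Smpx, a small muscle protein of the costamere, read 2.63, 2.52 and 2.75.

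The sarcoglycans are membrane proteins of the dystrophin complex. Sgcd read -2.64 in control, -2.77 in HSD1 and -2.27 with BVT added. At 1.41-fold above HSD1 it had the highest ratio of all members in that comparison (0.50), and this was 0.28 at its lowest over the settings. Sgca read -0.11, -0.15 and 0.17, which is 1.25-fold above HSD1. Control and HSD1 differed by less than 2 technical SD in both genes.

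Dystrophin and vinculin went the other way. Dmd, whose protein joins actin to the sarcoglycan complex, averaged 0.34 ± 0.054 in control, 0.19 ± 0.044 in HSD1 and 0.07 ± 0.040 with BVT added over 10 spots. The inhibitor array's spots lay below all those of both other arrays, while control and HSD1 overlapped. Its ratio to control was -0.27 ± 0.021 with vector and inhibitor (SE over spots). Its other, much dimmer probe on another transcript, with 1 spot, read -3.83, -3.59 and -3.80 and gave a ratio of 0.04. The ratio of HSD1 to control was -0.15 on the brighter probe and ran from -0.18 to 0.04 over the settings.

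Vcl, which links talin to actin at costameres and adhesions, averaged 1.87 ± 0.039, 1.79 ± 0.034 and 1.61 ± 0.031, with 10, 10 and 9 spots. The inhibitor array again lay below both others with no overlap, as it did for Pdlim1, and Vcl was 1.2-fold below control there. Its other probe, with 1 spot, read -1.52, -1.46 and -1.57, a ratio of -0.05 to control. Cavin4, a caveola-associated protein of muscle listed under its older name Murc, read -4.71, -4.50 and -4.70, with no ratio over 2 technical SD.

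**Figure D4:**
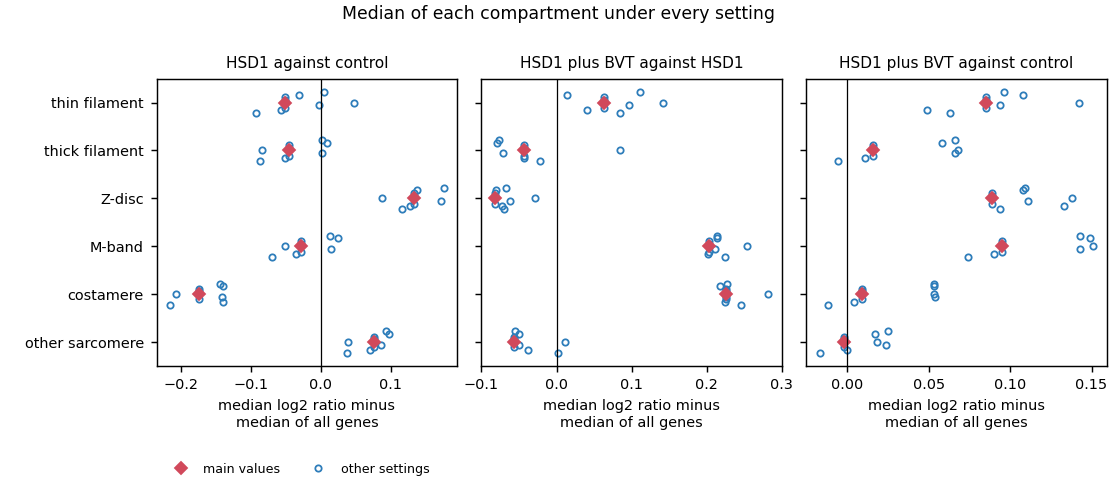
Median log2 ratio of each compartment minus the median over all genes (x axes), for the main values and 9 other processing settings, in the 3 comparisons. The Z-disc lies above 0 and the costamere below 0 for HSD1 against control in every setting, and M-band and costamere lie above 0 for HSD1 plus BVT against HSD1.

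The 35 members fell into several orders. In 11, control was lowest and HSD1 plus BVT highest, among them Tnnt2, Cryab, Csrp3 and Trim54. In 8, control was lowest and HSD1 highest, among them Des, Fhl1 and Fhl2. In 8 others, HSD1 was lowest and HSD1 plus BVT highest, and 5 of these were the costamere genes Smpx, Xirp2, Nrap, Sgca and Sgcd. HSD1 plus BVT was lowest and control highest in 4, which were Lmod2, Smyd1, Vcl and Dmd. Many of these orders rest on steps smaller than the technical error.

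Among 71 further genes of the sarcomere and its attachments, 53 were measured on all arrays, and 1, 5 and 4 of them passed 1.5-fold in HSD1 against control, HSD1 plus BVT against HSD1 and HSD1 plus BVT against control. Of all genes, 7.95%, 9.08% and 13.6% did, so these counts were near or below the background. For HSD1 against control 40 of 53 lay above 0, with a median of 0.132, where 59.3% of all genes lay above 0. Lmod1, the smooth muscle leiomodin, read -3.76, -2.63 and -3.36, which is 2.19-fold above control in HSD1, and 1.65-fold lower again with the inhibitor. Its other probe gave ratios of 1.02 and -0.67. Myh6, the α-myosin heavy chain, stood at 0.09 with the vector and 0.15 with vector and inhibitor against control, and Myh7, the β-myosin heavy chain that marks hypertrophy in rodents, at 0.13 and 0.14. Myl2, the regulatory light chain of ventricular myosin, read 1.67, 1.22 and 1.54, so HSD1 was 1.37-fold below control. Actc1, the cardiac α-actin, read 6.25, 6.4 and 6.1, with the inhibitor array 1.23-fold below HSD1.

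Tnni1, the slow troponin I of the fetal heart, read 1.84, 2.26 and 1.60, so the inhibitor array was 1.58-fold below HSD1. The fast troponin T gene Tnnt3 was also 1.58-fold lower in that comparison, at a dim signal. Klhl40, a muscle kelch protein that stabilizes thin filament proteins, read -6.30, -5.99 and -5.25 and was 2.06-fold above control with vector and inhibitor. Its signal was dim too, with a technical SD of 0.211 for its log2 ratio of 1.04. The dystrophin relative Utrn stood 2.25-fold above control with vector and inhibitor on its brighter probe, but at 0.37 (log2) on its other one. Against HSD1, the inhibitor array stood at 0.68 on the brighter Utrn probe and -0.12 on the other. With the vector alone the Utrn probes gave 0.49 and 0.48 against control. Itga7, the laminin receptor subunit of muscle, read -0.67, -1.17 and -1.28, which is 1.41-fold and 1.53-fold below control.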

How the data were processed

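Total RNA of 3 pooled cultures was labelled with Cy3 and read on 1 Agilent array each. The deposited intensity values were extracted with Agilent Feature Extraction 11.0.1.1, per the file headers and the submitters' processing notes. The processed signal it wrote is background-subtracted and linear. A table of log2 values was deposited by the authors too; the sources used here do not name its software.

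Each array's processed signal was divided by its percentile 75 over non-control spots and put on the log2 scale (1320, 1169 and 1549 in control, HSD1 and HSD1 plus BVT). Control spots (1377 per array) and outlier spots (311, 409 and 363) were dropped, and repeated spots were averaged. No spot was saturated, and 81.2% to 82.4% of spots were well above background. The arrays correlated across probes at r = 0.984 to 0.989. Of 30367 probes, 17997 matched 1 gene by accession in a RefSeq table of GRCr8. The brightest probe by mean signal stood for a gene, and Murc was matched as Cavin4. A gene entered a comparison if well above background on both arrays. The array probes' own positions were not used.

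With 1 array per group no test was run. Technical SD came from 1388 probes printed 10 times, in 4 classes of signal. The calling step was tested on simulated data. The members and the lists were chosen with earlier results of these data known. All members could be named; those given with 3 levels were the extremes of each compartment and those past 1.5-fold, and further sarcomere genes were named if past 1.5-fold. Myh6, Myh7, Myl2, Actc1 and the other members given with levels were added after their values were seen. Alternatives were quantile and cyclic loess scaling, other percentiles, normexp (offset 50, limma 3.58.1 in R 4.3.3), the authors' values, the median over probes, outlier spots kept and no filter on dim probes. The files hold no mean spot signal, so normexp used the median. Tables were made with Python 3.11.15 and pandas 2.3.3.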

Additional observations from a re-analysis of the deposited data

How the results depend on the processing

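The number of members past 2-fold was 0 in all 3 comparisons under every setting run. The 1 member past 1.5-fold in HSD1 against control, Myot, was lost (count of 0) under quantile normalization, cyclic loess, both other percentiles, normexp and the authors' deposited values. Without the filter on dim probes the count was 2, since Ankrd2 entered. The 1 member past 1.5-fold in HSD1 plus BVT against control, Trim54, was lost in the authors' values, at 0.58. The members' median for HSD1 plus BVT against HSD1 was -0.002 under cyclic loess, in place of 0.055. For HSD1 plus BVT against control it was 0.041 under quantile normalization and 0.04 in the authors' values, in place of 0.121. The cause was not tested. Over all genes, 944, 1062 and 1596 passed 1.5-fold in the 3 comparisons, 377, 462 and 566 under normexp, and 2499, 2993 and 3233 without the filter, where dim probes are added. At 2-fold the numbers were 224, 244 and 433, against 93, 77 and 134, and 1091, 1533 and 1449. Of the members' own ratios under the alternatives, 820 stayed near the main value, 118 moved away from it, 7 fell under 1.5-fold and 0 turned past a threshold. The cut between near and moved did not follow each gene's own technical SD. Myoz1, for one, counted as moved at 0.06 under quantile normalization against 0.17 for HSD1 against control, with a technical SD of 0.214. The percentile over probes and the use of each array's median background for marked spots in normexp were chosen after seeing the data. Among the members, dim probes limit Myot, Ankrd2, Pdlim3, Myoz1 and Cavin4, whose technical SD was at least 0.211. The same holds for the further genes Klhl40, Tnnt3 and Lmod1.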
